A study of Mus musculus with 10 samples.

Results

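Cell cycle and proliferation genes were examined in whole ovaries of mice aged 6 weeks that lacked or kept the retinoic acid receptor genes in somatic cells. The set holds 42 named genes of a deposited count table of 24306 genes. They were taken by symbol, all 42 were found, and all 42 passed the filter on low counts, so every member was tested. The data are 10 polyA RNA libraries from mice of mixed C57BL/6 and 129 background. Dmrt1 het Rar mutants (n = 2) carried Dmrt1 fl/+ with Sf1-Cre+, and Rar mutants (n = 3) carried Sf1-Cre+ with no Dmrt1 allele named. Controls (n = 5) were Sf1-Cre-. All 3 groups shared the floxed alleles Rara f/f, together with Rarb f/f and Rarg f/f, so by the labels the Rar mutants differ from the controls by the Cre alone. The Cre is under the Sf1 (Nr5a1) promoter, a driver of gonadal somatic cells and not of germ cells, so oocytes keep the receptor genes. The pooled Cre-positive libraries (n = 5) are named Rar-deleted. Pooling gives the 5 replicates in each of 2 genotypes that the design text of the study names. The labels do not say whether libraries of a group came from separate animals, so p-values measure the spread between these libraries.

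The members are expressed in turn as a cell divides. Cyclins D and E with Cdk2 and the E2F factors take a cell out of G1, licensing factors and the Mcm helicase prepare and open replication origins, and cyclins A and B with Cdk1 start mitosis. Checkpoint kinases, the anaphase-promoting complex, kinetochore proteins and spindle motors then part the chromosomes. In the ovary of a young adult mouse, granulosa cells of growing follicles are the main dividing population, and cyclin D2 drives their division. Oocytes are arrested in meiosis and store messages of some of the same genes, such as cyclin B.

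Promoters of such genes often hold E2F sites, which serve G1 and S phase genes, or a cell cycle genes homology region (CHR) with CCAAT boxes, which serve genes of G2 and mitosis. The windows of 4 members that recur in the results are printed, with the letters of these sites marked where they occur. They are the 250 bases before the transcript start in the RefSeq promoter table (GRCm38.p6), written 5′ to 3′ on the strand of the gene. Capitals mark each match, on either strand, to CCAAT, to the CHR letters TTTGAA or TTCGAA, or to 1 of 4 E2F sequences. The E2F letters searched were TTCCCGC and its relative TTGGCGC, with TTCGCGC and then TTGCCGC as the remaining forms. A reverse-strand CCAAT reads ATTGG and can share bases with TTGGCGC.
Pcna, chr2:132253181-132253430, minus strand: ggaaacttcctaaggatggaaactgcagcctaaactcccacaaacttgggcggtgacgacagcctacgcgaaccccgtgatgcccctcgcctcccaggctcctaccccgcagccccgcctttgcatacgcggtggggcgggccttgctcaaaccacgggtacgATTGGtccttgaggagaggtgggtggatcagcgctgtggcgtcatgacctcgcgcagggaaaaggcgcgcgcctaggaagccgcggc
Ube2c, chr2:164769679-164769928, plus strand: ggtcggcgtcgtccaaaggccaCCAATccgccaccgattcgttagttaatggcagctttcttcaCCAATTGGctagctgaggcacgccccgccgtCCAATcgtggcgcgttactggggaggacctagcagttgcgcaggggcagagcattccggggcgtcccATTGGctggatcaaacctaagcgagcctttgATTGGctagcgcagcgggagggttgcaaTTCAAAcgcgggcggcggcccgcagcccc
Cdk1, chr10:69352913-69353162, minus strand: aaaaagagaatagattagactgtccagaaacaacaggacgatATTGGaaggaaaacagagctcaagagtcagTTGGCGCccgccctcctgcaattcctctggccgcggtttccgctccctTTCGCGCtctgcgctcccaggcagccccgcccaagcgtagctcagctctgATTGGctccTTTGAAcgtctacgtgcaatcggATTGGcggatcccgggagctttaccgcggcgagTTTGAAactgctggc
Mki67, chr7:135716380-135716629, minus strand: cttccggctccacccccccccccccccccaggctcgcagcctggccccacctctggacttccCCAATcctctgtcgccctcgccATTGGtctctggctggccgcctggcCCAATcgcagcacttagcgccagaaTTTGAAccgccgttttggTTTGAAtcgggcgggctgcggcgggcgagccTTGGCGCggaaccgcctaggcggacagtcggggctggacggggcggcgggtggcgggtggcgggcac
The window of Pcna, the replication clamp, holds 1 CCAAT box and none of the CHR or E2F letters. That of Ube2c, the ubiquitin-conjugating enzyme of the anaphase-promoting complex, holds 6 CCAAT boxes, a pair of them overlapping, and 1 CHR. The windows of Cdk1, the kinase of mitosis, and Mki67, the proliferation marker Ki-67 that coats mitotic chromosomes, each hold 2 CHR and 3 CCAAT boxes, with 2 E2F matches for Cdk1 and 1 for Mki67.

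The table gave 35 windows for 33 of the 42 members. A CCAAT box was found in 28 of the 35 windows (80.0%), against 33.8% of all 32851 windows of the table. A CHR was found in 11 windows (31.4%), against 17.1% of all windows, and each of those 11 also held a CCAAT box, a pairing seen in 6.02% of all windows. E2F letters were found in 11 windows (31.4%), against 7.89% of all. By role, E2F letters were in 5 of the 9 windows of licensing and fork genes, those of Cdc6, Mcm5, Mcm6 and both windows of Mcm7. None of the 4 windows of checkpoint and anaphase-promoting complex genes held them, while 3 of those 4 held a CHR, those of Bub1b, Cdc20 and Ube2c. The other roles did not divide so clearly. A CHR was also in 2 of the 9 licensing and fork windows. For mitotic cyclins and kinases, E2F letters and a CHR were each in 2 of 6 windows. E2F letters were in 1 of 3 G1 and 2 of 3 deoxynucleotide windows, with a CHR in 0 of each. E2F letters were in 1 of 5 chromosome and 0 of 5 spindle windows, with a CHR in 2 of each. A match describes letters only.

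Each library held 21064856 to 25920131 counts, of which the members took 0.202% to 0.309%. Ovarian cell types were present in every library: all 20 oocyte markers and all 12 granulosa markers lay above the limit that a count of 0 allows. Rarg, one of the deleted receptor genes, averaged 18.8 ± 2.74 CPM in Rar-deleted ovaries, against 29.5 ± 3.58 CPM in controls (SD, n = 5 each; log2 fold change -0.64). Rara and Rarb stood at 0.11 ± 0.18 and -0.31 ± 0.21 on the same scale (SE). Counts over a whole gene, in tissue where germ cells keep it, check the labels only in part. The sample titles carry a number, and the 4 libraries with numbers under 7800 (both Dmrt1 het Rar mutants, Rar mutant 1 and Control 1) stood apart from the 6 with higher numbers. The first principal component of log2 CPM, with 34.8% of the variance, placed the 4 between -55.9 and -43.8 and the 6 between 4.46 and 57.8. Their sequencer sample numbers are 27 to 30, against 20 to 26. The labels do not say what the numbers mark, so each comparison is also given with this split as a term in the fit.

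Levels were compared between genes per transcript length, in the FPKM that the authors deposited. In controls Pcna was the most abundant member, with 64.1 ± 7.77 FPKM (SD, n = 5), and its lowest control library (53.8 FPKM) lay above the highest value of the next member (36.1 FPKM). The next 4 were Ccnd2 (27.6 ± 5.83 FPKM), Ccnb2 (26.5 ± 5.08 FPKM), Top2a (26.4 ± 2.35 FPKM) and Cdk1 (23.6 ± 3.69 FPKM). These encode cyclin D2, cyclin B2, the topoisomerase that untangles sister chromatids, and the mitotic kinase. At the other end stood Cdc6, the origin loader, with 2.29 ± 0.289 FPKM. Ccnd1, cyclin D1, had 1.99 ± 0.514 FPKM, and Ccne1, cyclin E1, had 1.91 ± 0.505 FPKM. Among the members, cyclins D2 and D1 thus lay near opposite ends of the order.

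Of the 42 members, 24 reached 10 FPKM in the mean of the controls, and their median was 10.6 FPKM, against 4.55 FPKM over all genes tested. Neighbours in this order did not separate: the control ranges of 39 of the 41 neighbouring pairs overlapped. The spread between the 5 controls, as a coefficient of variation, ran from 4.78% for Cdk2 to 27.05% for Ube2c, with a median of 13.3%. In whole tissue, fewer dividing cells and less RNA per dividing cell cannot be told apart.

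**Figure D1:**
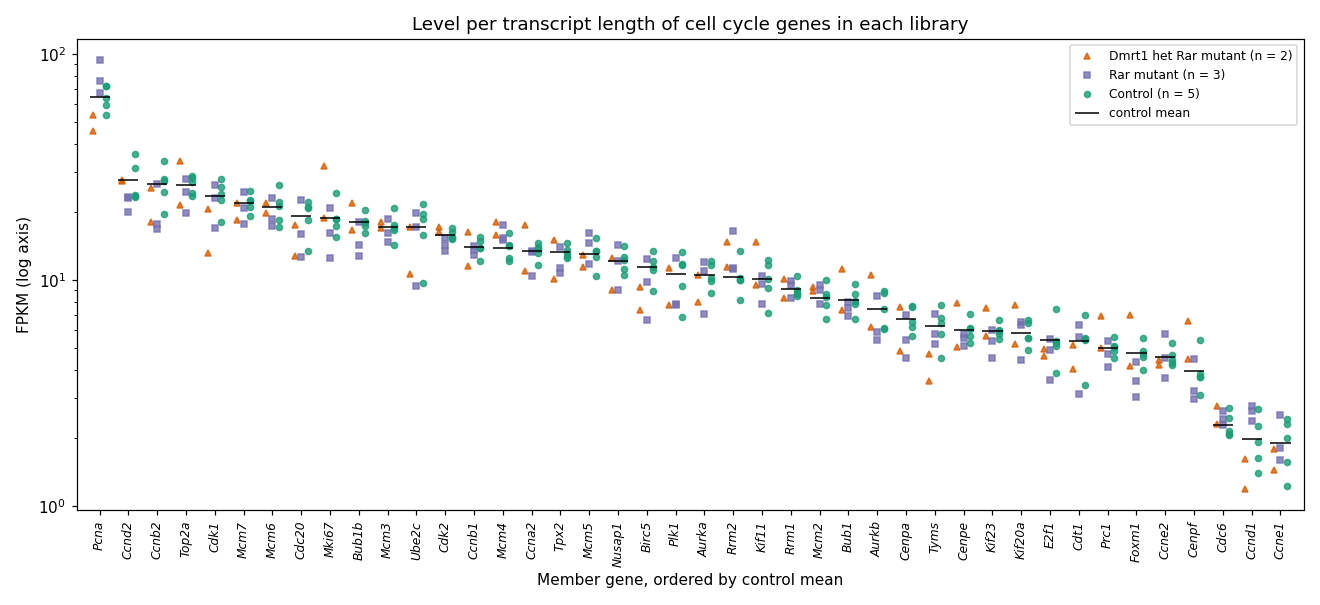
FPKM (log axis) of each of the 42 members in every library, ordered by the control mean (black line), with Dmrt1 het Rar mutants as triangles (n = 2), Rar mutants as squares (n = 3) and controls as circles (n = 5). Pcna stands highest at 64.1 FPKM in controls and Ccne1 lowest at 1.91 FPKM, and the 3 groups lie among each other for most genes.

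In all Rar-deleted ovaries together, no cell cycle gene passed the test against controls. With the quasi-likelihood test of edgeR (Benjamini-Hochberg adjusted p under 0.05 over 18954 genes), 0 of 42 members were called, beside 21 genes in all (0.111%). At an unadjusted p under 0.05 the count was also 0 of 42, beside 8.47% of all genes, and DESeq2 called 0 of 42, beside 0.745% of the genes it tested. The members' log2 fold changes ran from -0.34 (Ccnb2) to 0.33 (Rrm2), with a median of -0.04, against 0.00 over all genes. Of the 42, 14 lay above 0 and 28 below it, where all genes split 50.2% to 49.8%.

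The data were precise enough to bound these values gene by gene. The 95% interval of the fold change, not adjusted for the number of genes, lay wholly within a 2-fold change in either direction for 42 of 42 members, beside 72.9% of all genes tested. It lay within a 1.5-fold change for 29 of 42, beside 36.5% of all. No member had all 5 Rar-deleted libraries on 1 side of all 5 controls, which 1.76% of genes had. Nor did any member appear among the 185 genes of the authors' deposited table of differential expression.

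**Figure D2:**
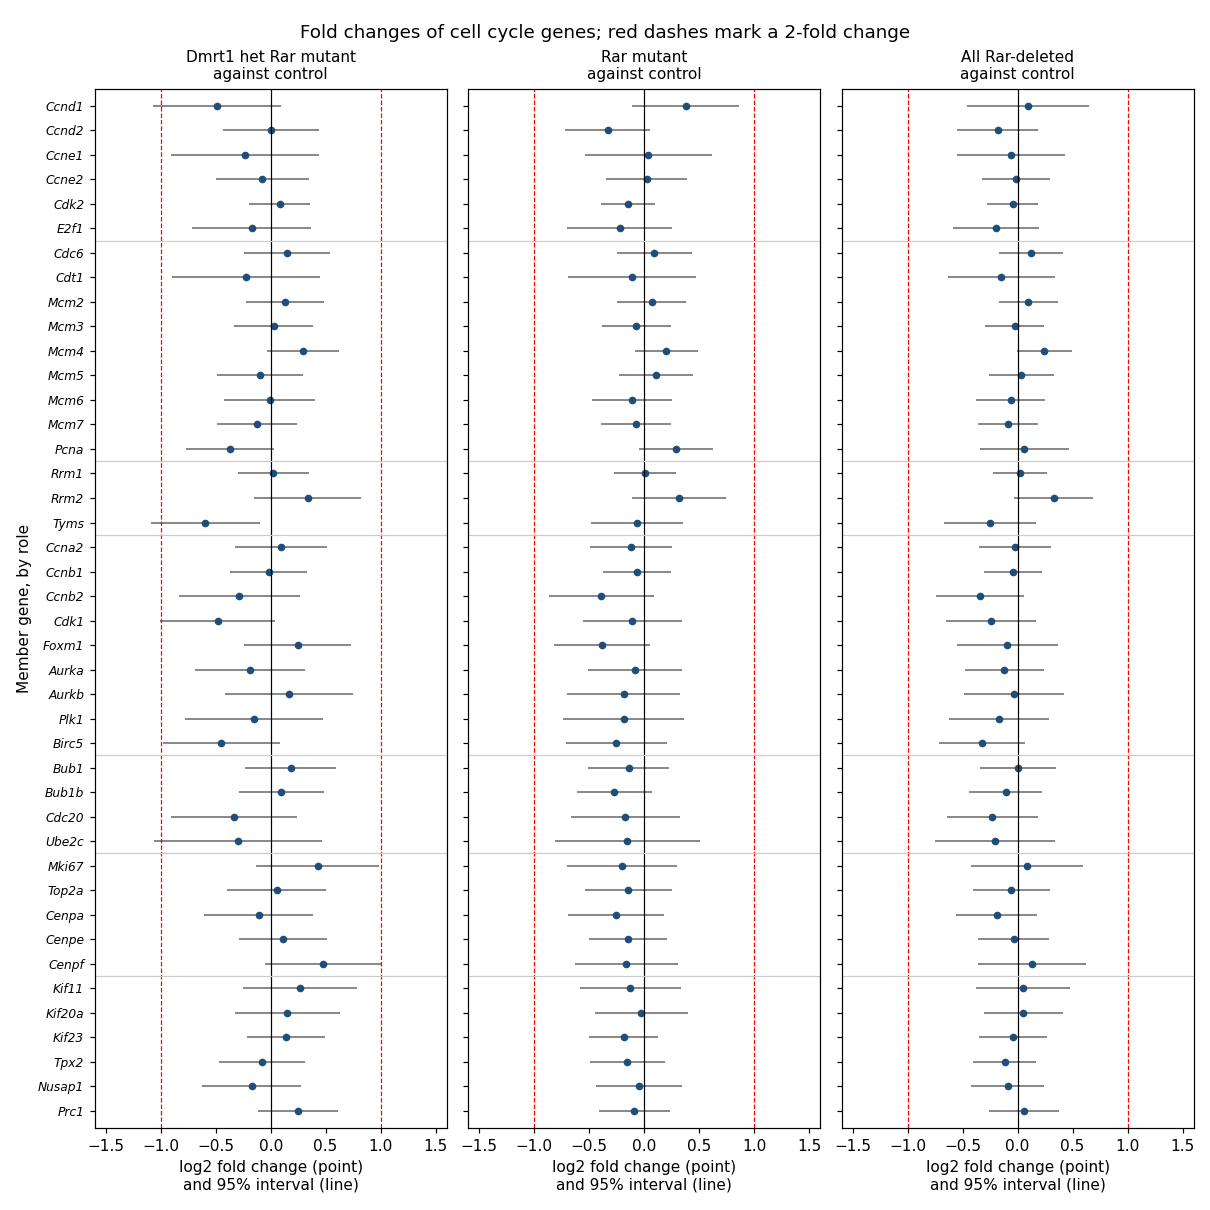
Log2 fold change (point) and 95% interval (line) of the 42 members, grouped by role, in Dmrt1 het Rar mutants, in Rar mutants and in all Rar-deleted ovaries, each against control, with dashed lines at a 2-fold change. In the pooled comparison and in Rar mutants all 42 intervals stay between the dashed lines, and in Dmrt1 het Rar mutants 38 do.

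Among the G1 regulators, E2f1, the transcription factor that switches on S phase genes, had the smallest p in the pooled comparison. It had 15.8 and 14.7 CPM in Dmrt1 het Rar mutants, 11.4, 17.6 and 15.3 CPM in Rar mutants, and 12.4, 16.5, 17.1, 16.3 and 23.7 CPM in controls. The high control is Control 5, and all other libraries lay between 11.4 and 17.6 CPM. Its log2 fold change over all Rar-deleted ovaries was -0.20 ± 0.18 (SE; edgeR adjusted p = 0.705). Cdk2, the partner of cyclin E, was the steadiest member in controls. It had 42.1 and 40.1 CPM in Dmrt1 het Rar mutants, 34.8, 37.9 and 32.5 CPM in Rar mutants and 37.1 to 41.4 CPM in controls. Ccne1 was the least abundant member per length, and had 4.79 and 3.90 CPM in Dmrt1 het Rar mutants, 4.25, 4.86 and 6.70 CPM in Rar mutants, and 3.32, 5.33, 4.21, 6.22 and 6.55 CPM in controls. The groups overlapped throughout, and its pooled log2 fold change was -0.06 ± 0.23 (edgeR adjusted p = 0.937).

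Ccnd2 is the member most closely tied to granulosa cell division. It had 261 and 264 CPM in Dmrt1 het Rar mutants, 218, 190 and 214 CPM in Rar mutants, and 223, 293, 342, 226 and 221 CPM in controls. All 3 Rar mutants lay below all 5 controls, though Rar mutant 1 only just so, and both Dmrt1 het Rar mutants lay within the control range. The log2 fold change was -0.33 ± 0.17 in Rar mutants (edgeR adjusted p = 0.612) and -0.18 ± 0.17 in the pooled comparison (edgeR adjusted p = 0.709), so neither was a call.

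Origin licensing and fork genes split evenly in the pooled comparison, 5 above 0 and 4 below, with a median log2 fold change of 0.03. Mcm4, a subunit of the replicative helicase, had the smallest p of all members there. It had 65.1 and 57.2 CPM in Dmrt1 het Rar mutants, 54.1, 63.8 and 54.7 CPM in Rar mutants, and 51.7, 50.5, 45.2, 44.1 and 58.2 CPM in controls. Control 5 alone lay among the Rar-deleted values, and the log2 fold change was 0.24 ± 0.12 (edgeR adjusted p = 0.605). The other helicase subunits did not share its value: Mcm2, Mcm3, Mcm5, Mcm6 and Mcm7 lay between -0.09 and 0.10.

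Pcna had fold changes of opposite sign in the 2 kinds of Rar-deleted ovary. It had 129 and 110 CPM in Dmrt1 het Rar mutants, 161, 184 and 222 CPM in Rar mutants, and 131, 153, 144, 174 and 173 CPM in controls. Both Dmrt1 het Rar mutants lay below every control, the first by a narrow margin. Rar mutants 2 and 3 lay above every control, and Rar mutant 1 lay within their range. The lowest control is Control 1, which shares the title-number set of the Dmrt1 het Rar mutants. Between the title-number sets Pcna was lower under 7800, with a log2 difference of -0.47 (edgeR adjusted p = 0.0298). Against controls the log2 fold change was -0.37 ± 0.18 in Dmrt1 het Rar mutants and 0.29 ± 0.15 in Rar mutants, and neither passed (edgeR adjusted p = 0.308 and 0.617).

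The 3 genes of deoxynucleotide supply did not share a direction. Rrm2, the regulated subunit of ribonucleotide reductase, had 41.1 and 31.8 CPM in Dmrt1 het Rar mutants, 30.9, 46.0 and 30.9 CPM in Rar mutants, and 27.97, 28.2, 22.8, 28.1 and 37.3 CPM in controls. All 5 Rar-deleted libraries exceeded 4 of the 5 controls, and the log2 fold change was 0.33 ± 0.16 (edgeR adjusted p = 0.619). Rrm1, the large subunit of the same enzyme, stood at 0.02 ± 0.11 and Tyms, thymidylate synthase, at -0.25 ± 0.19.

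All 9 mitotic cyclins, kinases and regulators had log2 fold changes below 0 in the pooled comparison, between -0.34 and -0.03, and none was called. Ccnb2 had 39.2 and 27.9 CPM in Dmrt1 het Rar mutants, 25.7, 41.0 and 26.9 CPM in Rar mutants, and 30.1, 37.6, 42.0, 51.8 and 43.1 CPM in controls. The lowest control is Control 1, and 2 of the 5 Rar-deleted libraries lay above it. The log2 fold change was -0.34 ± 0.18 (edgeR adjusted p = 0.631). Birc5, the survivin subunit of the chromosomal passenger complex, stood next at -0.33 ± 0.18, and Cdk1 at -0.24 ± 0.19. With the title-number term the values of these 3 were -0.22, -0.15 and -0.05.

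Cdc20, an activator of the anaphase-promoting complex, had 33.0 and 24.1 CPM in Dmrt1 het Rar mutants, 23.5, 42.7 and 29.7 CPM in Rar mutants, and 25.4, 34.2, 41.6, 39.8 and 39.1 CPM in controls. Its highest and its lowest value were both in Rar mutants, and the pooled log2 fold change was -0.23 ± 0.19 (edgeR adjusted p = 0.684). Cenpa, the histone variant that marks centromeres, had 45.1 and 28.6 CPM in Dmrt1 het Rar mutants, 26.5, 41.6 and 31.6 CPM in Rar mutants, and 33.4, 36.3, 44.7, 45.5 and 38.7 CPM in controls. Its pooled log2 fold change was -0.19 ± 0.17 (edgeR adjusted p = 0.699). Tpx2, a spindle assembly factor that activates Aurora A, had 70.7 and 47.8 CPM in Dmrt1 het Rar mutants, 52.6, 66.5 and 49.9 CPM in Rar mutants, and 60.0, 58.4, 61.6, 64.5 and 68.7 CPM in controls. Controls lay close together, whereas the Rar-deleted libraries spread to both sides of them, and the log2 fold change was -0.12 ± 0.13 (edgeR adjusted p = 0.759).

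In Rar mutants alone, 0 of 42 members were called against controls, beside 2 of 20570 genes (0.00972%). None reached an unadjusted p under 0.05, beside 9.45% of all genes, and DESeq2 called none, beside 1.74%. The median log2 fold change of the members was -0.11, against -0.02 over all genes. All 42 intervals lay within a 2-fold change (63.1% of all genes) and 23 within a 1.5-fold change (30.2%). Ccnd2 was the 1 member whose groups did not overlap, beside 5.14% of all genes.

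All 24 genes of the 4 mitosis roles had log2 fold changes below 0 in Rar mutants, between -0.39 (Ccnb2) and -0.02 (Kif20a), whereas the other 18 members split 10 above and 8 below. Over all genes 53.1% lay below 0. These genes are measured in the same 3 libraries, so their signs are not independent of each other. The count of 24 became 19 without Rar mutant 1, 22 without Control 5, and 22 in the libraries with title numbers of 7800 and above alone. It was 24 with the title-number term and 18 with the replicate number as a block.

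Foxm1, the transcription factor of many G2 and mitosis genes, had the smallest p of the members in Rar mutants. It had 40.7 and 24.3 CPM in Dmrt1 het Rar mutants, 20.5, 25.2 and 17.3 CPM in Rar mutants, and 28.2, 27.2, 26.4, 23.4 and 32.1 CPM in controls. A pair of Rar mutants lay below every control and the other lay within their range, and the log2 fold change was -0.38 ± 0.20 (edgeR adjusted p = 0.593). Bub1b, the BubR1 kinase of the spindle checkpoint, had 94.0 and 71.9 CPM in Dmrt1 het Rar mutants, 54.7, 77.7 and 60.4 CPM in Rar mutants, and 78.9, 74.0, 69.7, 77.0 and 88.2 CPM in controls. Its log2 fold change was -0.27 ± 0.15 (edgeR adjusted p = 0.649).

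Kif23, a kinesin of the central spindle needed for cytokinesis, had 59.8 and 45.2 CPM in Dmrt1 het Rar mutants, 35.8, 47.9 and 41.9 CPM in Rar mutants, and 53.0, 43.2, 46.1, 47.5 and 48.0 CPM in controls. Rar mutants 1 and 3 again lay below every control, and the log2 fold change was -0.19 ± 0.14 (edgeR adjusted p = 0.769). For Foxm1, Bub1b and Kif23, Rar mutant 2 stood among the controls and the other 2 Rar mutants below them. These genes were named for the smallest p of their roles in Rar mutants, so low values follow in part from that choice. Not all mitosis genes had this form. Mki67 had 208 CPM in Rar mutant 1, within the controls (158 to 246 CPM). Cdk1 had 78.6 CPM in Rar mutant 3, also within the controls (62.6 to 97.1 CPM).

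Markers of other cells differed between the same libraries. The summed level of the 12 granulosa markers was 3722, 2724 and 4235 CPM in Rar mutants. It was 7964 CPM in Control 3 and 3604 to 4821 CPM in the other controls. Inha alone gave 1561, 1397 and 2418 CPM of the sums in Rar mutants, so the sums mostly follow this gene. Gene by gene, the 12 granulosa markers had a median log2 fold change of -0.66 in Rar mutants against controls. The summed level of the 20 oocyte markers was 358, 963 and 1180 CPM in Rar mutants and 833 to 1250 CPM in controls. Genes of ovulation and cumulus expansion, 13 of the 14 listed being in the table, summed to 309, 826 and 2781 CPM in Rar mutants and to 53.3 to 269 CPM in controls. Different genes made up most of each sum. Runx2 had 222 CPM in Rar mutant 1 (3.89 to 182 CPM in controls), and Adamts1 had 620 CPM in Rar mutant 2. Sult1e1 had 1055 CPM and Ereg 557 CPM in Rar mutant 3. Ptgs2 had 0.31, 4.07 and 209 CPM in Rar mutants 1 to 3, and 0.12 to 0.74 CPM in controls. Calls in these 3 lists were counted in the pooled comparison only, and no gene was called there. That comparison adds the Dmrt1 het Rar mutants. Their sums were 5532 and 5818 CPM for granulosa markers, 860 and 706 CPM for oocyte markers, and 134 and 128 CPM for ovulation genes. The oocyte sum of 706 CPM lay below every control. The part of these 3 lists in the values of the cell cycle genes was not tested.

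**Figure D3:**
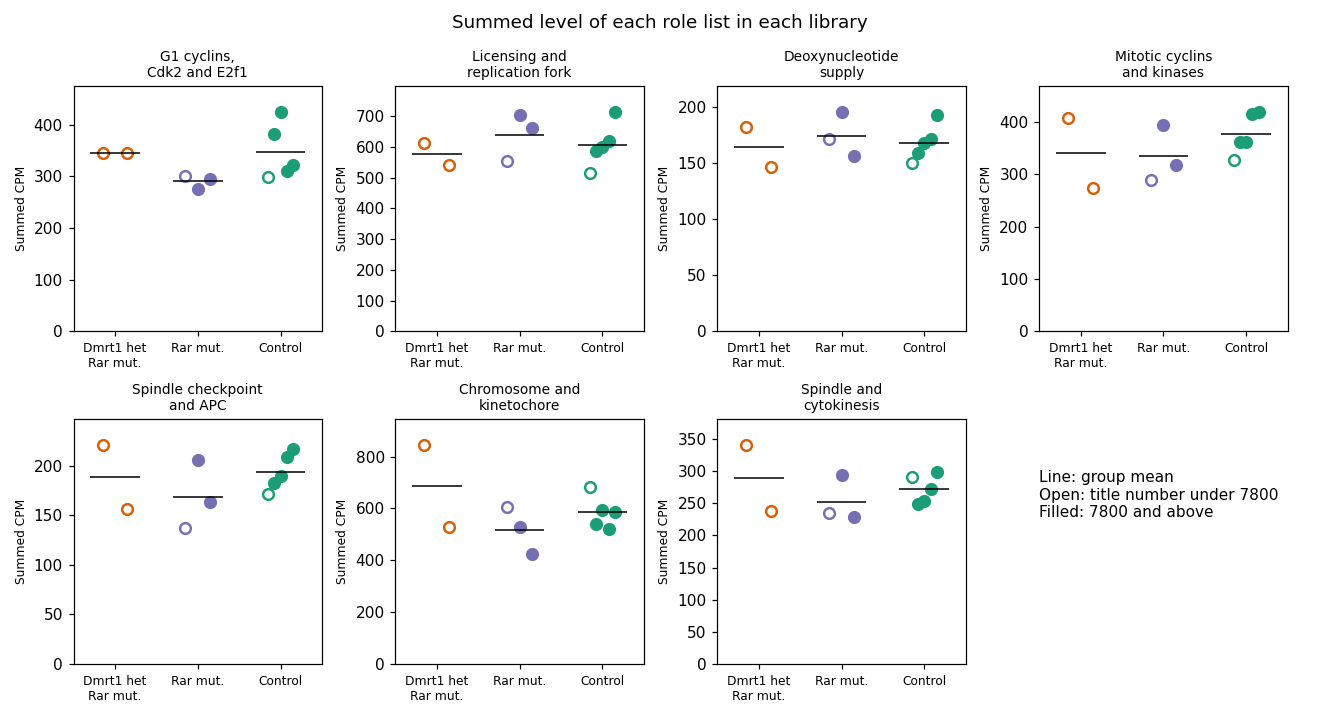
Summed CPM of the members of each of the 7 roles in every library, with a line at the group mean, open points for title numbers under 7800 and filled points for 7800 and above. For chromosome and kinetochore genes Dmrt1 het Rar mutants 1 and 2 stand at 844 and 527 CPM, and the controls at 523 to 683 CPM.

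In Dmrt1 het Rar mutants, 0 of 42 members were called against controls, beside 4 genes in all (0.0194%), and DESeq2 called none, beside 1.78%. At an unadjusted p under 0.05 edgeR gave 1 member, Tyms, beside 17.3% of all genes. Tyms makes the thymidine nucleotide for DNA synthesis. It had 28.8 and 22.1 CPM in Dmrt1 het Rar mutants, 31.7, 43.8 and 34.9 CPM in Rar mutants, and 27.8, 35.2, 47.7, 42.1 and 39.6 CPM in controls. One of the Dmrt1 het Rar mutants lay below every control and the other just above Control 1, the control that shares their title-number set. The log2 fold change was -0.60 ± 0.22 (edgeR adjusted p = 0.252), and -0.22 with the title-number term.

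The members' fold changes in Dmrt1 het Rar mutants split 21 above and 21 below 0 (48% of all genes lay above), with a median of -0.0023 on the log2 scale. This median rested on which library was present: it was -0.23 with the first Dmrt1 het Rar mutant left out and 0.14 with the second left out. With 2 libraries the intervals were wider, and 38 of 42 lay within a 2-fold change (47.4% of all genes) and 17 within a 1.5-fold change (16.5%). Pcna alone did not overlap between the groups, where 28.4% of all genes did not.

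The 2 Dmrt1 het Rar mutants differed from each other in the cell cycle genes. The first had the higher CPM for 40 of 42 members, all but Ccnd1 and Ccnd2, beside 54.1% of all genes. For the 24 mitosis genes the fold between them had a median of 1.48 and ran from 1.26 to 1.70, and for the 18 other members it had a median of 1.13. Mki67 had 324 CPM in the first and 190 CPM in the second, and Aurkb, the kinase of the chromosomal passenger complex, had 31.2 and 18.5 CPM. Dmrt1 het Rar mutant 1 was the highest of all 10 libraries for 18 members, 15 of them mitosis genes, beside 13.8% of all genes.

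Rar mutants also differed among themselves. Rar mutant 2 was the highest of the 3 for 30 of 42 members, beside 28.2% of all genes. Rar mutant 1 was the lowest of all 10 libraries for 14 members and Rar mutant 3 for 10, beside 11.998% and 17.7% of all genes. Ube2c showed the widest such gap, with 44.8 and 27.9 CPM in Dmrt1 het Rar mutants, 24.3, 52.1 and 44.0 CPM in Rar mutants, and 25.5, 41.0, 48.8, 56.9 and 51.3 CPM in controls. Rar mutant 1 and Control 1, the lowest of their groups, both have title numbers under 7800. Among controls, Control 5 was the highest for 22 of 42 members, beside 11.4% of all genes.

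**Figure D4:**
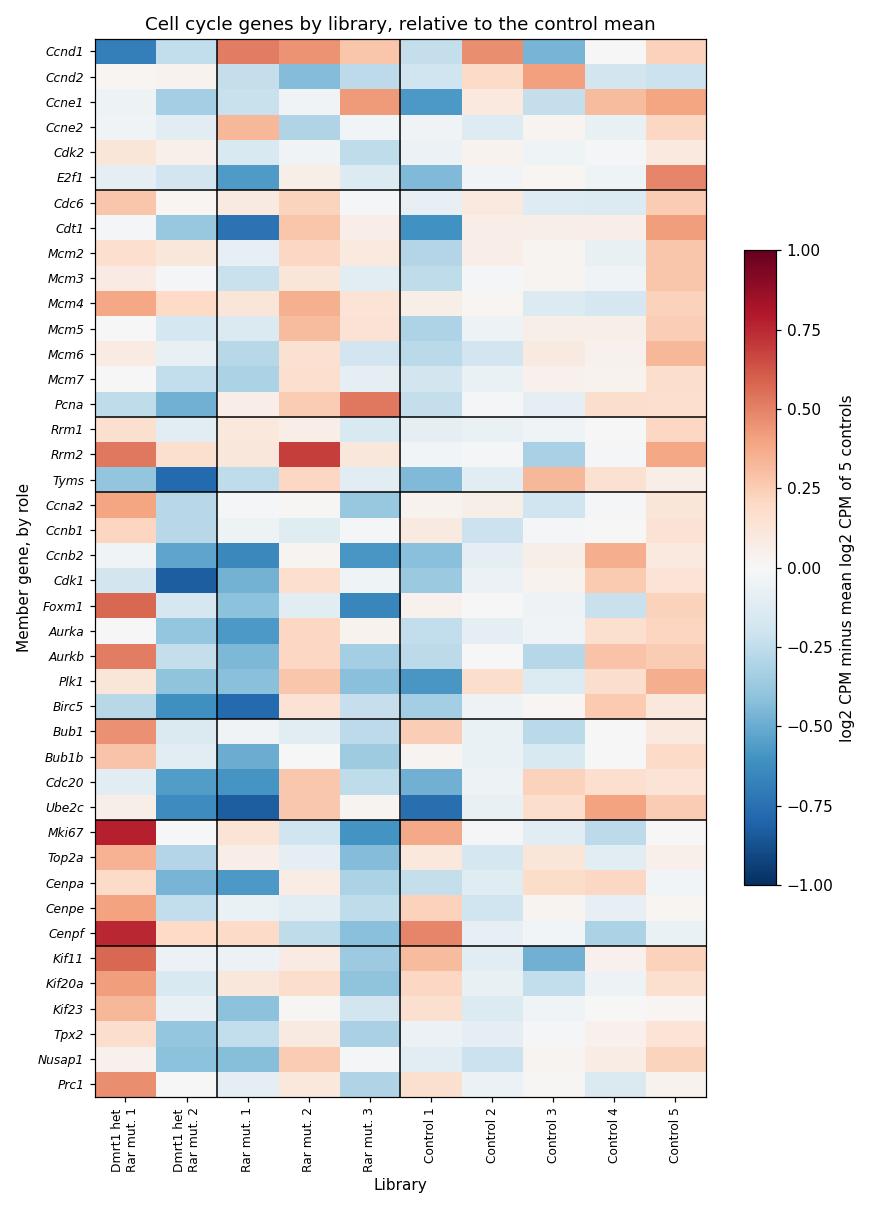
Log2 CPM of each member (rows, by role) in each library (columns) minus the mean of the 5 controls, on a colour scale from -1 to 1. Dmrt1 het Rar mutant 1 is red through most mitosis genes, with a deviation of 0.78 for Mki67, whereas Rar mutant 1 is blue for Ube2c (-0.82) and Birc5 (-0.77).

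The 2 kinds of mutant, which by the labels differ in the Dmrt1 allele, were also compared directly. Both Dmrt1 het Rar mutants have title numbers under 7800, and Rar mutants 2 and 3 have higher ones. Differences by allele and by title-number set therefore cannot be fully told apart. Dmrt1 itself had 5 counts in all, at 0.219 CPM in Dmrt1 het Rar mutant 2, and 0 CPM in every other library. With edgeR 0 of 42 members were called, beside 0 of 20570 genes (0%). At an unadjusted p under 0.05 it gave 6 members, beside 16.9% of all genes: Foxm1, Mki67 and Cenpf were higher in Dmrt1 het Rar mutants, and Ccnd1, Pcna and Tyms were lower. DESeq2 called 626 genes (3.66%) and 1 member, Pcna, with a log2 fold change of -0.67 ± 0.21 (DESeq2 adjusted p = 0.0470). In edgeR Pcna stood at -0.66 ± 0.20 (adjusted p = 0.210), and at -0.44 with the title-number term (adjusted p = 0.538).

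Ccnd1 had the largest difference in size. It had 5.68 and 7.72 CPM in Dmrt1 het Rar mutants, 13.1, 12.5 and 11.1 CPM in Rar mutants, and 7.78, 12.7, 6.64, 9.21 and 10.8 CPM in controls. The 2 kinds of mutant did not overlap, and the range of the controls reached into both. The log2 fold change was -0.87 ± 0.29 (edgeR adjusted p = 0.225). In all, 6 members did not overlap between the mutants (Ccnd1, Ccnd2, Cdk2, Pcna, Tyms and Cenpf), beside 39.3% of all genes.

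The median log2 fold change of the members between the mutants was 0.07, with 28 above 0 and 14 below, where 49% of all genes lay above. It was -0.15 without Dmrt1 het Rar mutant 1 and 0.20 without Rar mutant 2, so the direction turned with 1 library. Intervals lay within a 2-fold change for 35 of 42 members (42.3% of all genes) and within a 1.5-fold change for 12 (12.5%).

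The only calls among cell cycle genes in edgeR were between the sets of libraries by title number. Genotype is not balanced over these sets: both Dmrt1 het Rar mutants, Rar mutant 1 and Control 1 lie under 7800. With Rar deletion as the other term, a difference of the Dmrt1 het Rar mutants cannot be told apart from one between the sets. The 4 libraries under 7800 against the 6 above, with Rar deletion as the other term, gave 5250 called genes (27.7%), and 10 of the 42 members, a share close to that background. The 2 higher under 7800 were Mki67 and Cenpf, a kinetochore protein (14.3% of all genes were called higher). The 8 lower were Cdt1, the licensing factor, Mcm5, Pcna, Tyms, Cdk1, Birc5, Cdc20 and Ube2c (13.4% of all genes).

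Cenpf had 102 and 69.4 CPM in Dmrt1 het Rar mutants, 69.1, 50.7 and 45.5 CPM in Rar mutants, and 84.9, 57.2, 59.6, 48.7 and 58.0 CPM in controls. The 4 libraries under 7800 were the 4 highest. The log2 difference between the sets was 0.69 ± 0.14 (edgeR adjusted p = 0.00662), and Cenpf was called in all 14 settings tried. Cdk1 had 71.4 and 45.8 CPM in Dmrt1 het Rar mutants, 58.3, 91.3 and 78.6 CPM in Rar mutants, and 62.6, 77.8, 83.0, 97.1 and 89.1 CPM in controls. Here the 4 libraries under 7800 were the 4 lowest, with a log2 difference of -0.50 ± 0.14 (edgeR adjusted p = 0.0223).

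Mki67 and Cdk1 are both standard markers of dividing cells, and between these sets they differed in opposite directions. With the 3 genotype groups as the other term their log2 differences were 0.49 and -0.50. Neither was then called (edgeR adjusted p = 0.112 and 0.0784). Mki67 averaged 242 ± 59.4 CPM under 7800 and 167 ± 23.9 CPM above (SD, n = 4 and 6), with a log2 difference of 0.64 ± 0.18 (edgeR adjusted p = 0.0238). Ube2c averaged 30.6 ± 9.55 CPM under 7800 and 49.0 ± 5.77 CPM above, with a log2 difference of -0.71 ± 0.20 (edgeR adjusted p = 0.0232).

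The number of calls depended on single libraries. It was 1 member and 3298 genes in all without Rar mutant 2, 2 members and 3166 genes without Control 1, and 3 members and 3329 genes without the second Dmrt1 het Rar mutant. With the 3 genotype groups as the other term 5 members were called (Cdt1, Birc5, Cdc20, Ube2c and Cenpf), beside 11.7% of all genes. All Dmrt1 het Rar mutants lie in the set under 7800, so the estimate of their group with the title-number term rests on Rar mutant 1 and Control 1. With that term edgeR called 0 of 42 members in each of the 4 genotype comparisons. The share of all genes called was then 0.211% in the pooled comparison, 0.413% in Rar mutants, 0.00486% in Dmrt1 het Rar mutants and 0% between the mutants.

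The differences between the sets were also compared with the length of the gene. Across the 42 members, Spearman's rho between exon length and the log2 difference was 0.63, and across 18808 genes it was 0.45. These are values across genes in the same libraries and genes are not replicates. The 21 longer members, above the median of 4346 bp, had a median log2 difference of 0.07, and the 21 shorter ones had -0.28. Over all genes the median ran from -0.45 in the shortest class to 0.51 in the longest. Cenpf, with 15433 bp of exon, is the longest member and Mki67, with 10061 bp, the third longest, whereas the called members that were lower have 1868 bp (Cdc20) to 6089 bp (Tyms). The part of gene length in these calls was not tested.

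**Figure D5:**
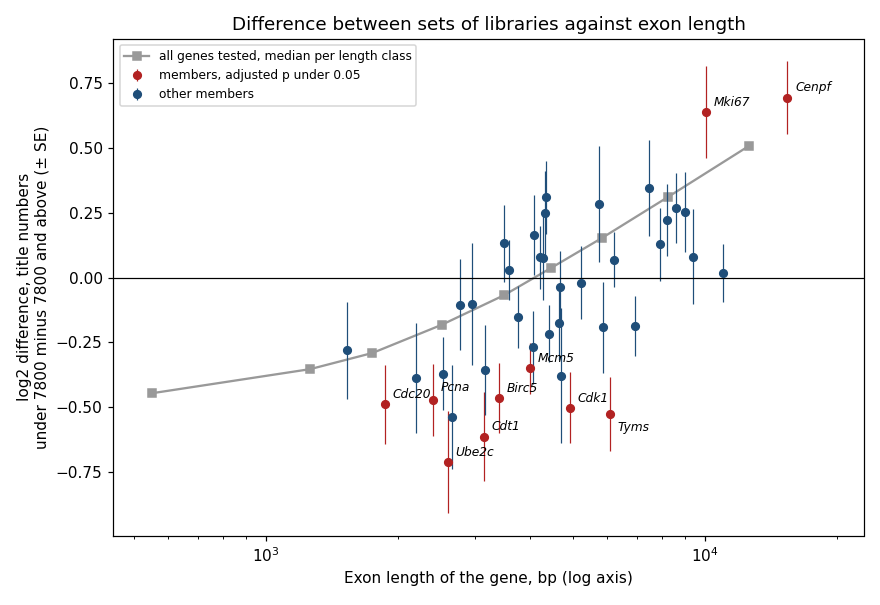
Log2 difference (± SE) between libraries with title numbers under 7800 (n = 4) and of 7800 and above (n = 6) for each member against its exon length (log axis, bp), with called members in red and the median of all genes per length class in grey. Cenpf, the longest member, lies highest (0.69) and Ube2c lowest (-0.71), and members scatter to both sides of the line of all genes, with Tyms (6089 bp) at -0.53 and Rrm1 (11012 bp) at 0.02.

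At an unadjusted edgeR p under 0.05, Foxm1, Mki67 and Cenpf were higher in Dmrt1 het Rar mutants than in Rar mutants. They have 5754, 10061 and 15433 bp of exon. The 3 that were lower (Tyms, Ccnd1 and Pcna) have 6089, 4709 and 2400 bp, so Tyms is longer than Foxm1. Across all 42 members, Spearman's rho between exon length and this difference was 0.51, and -0.12 with the title-number term. The part of gene length in this comparison was not tested.

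Other genes of the pathway were counted from 5 lists of 105 genes, of which 103 were tested. With edgeR, DESeq2 or the title-number term, 0 of 103 were called in any of the 4 comparisons. At an unadjusted p under 0.05 edgeR gave 11 in Dmrt1 het Rar mutants against controls, 1 in Rar mutants against controls, 0 in the pooled comparison, and 13 between the mutants. The corresponding shares of all genes are 17.3%, 9.45%, 8.47% and 16.9%.

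Among the 7 inhibitors of cyclin-dependent kinases, Cdkn1a, the inhibitor p21, had the smallest p in the pooled comparison. It had 43.1 and 18.5 CPM in Dmrt1 het Rar mutants, 17.4, 67.2 and 43.2 CPM in Rar mutants, and 12.7, 20.7, 11.2, 44.4 and 16.3 CPM in controls. Each group held high and low libraries, and the log2 fold change was 0.85 ± 0.45 (edgeR adjusted p = 0.631). Of the 10 pocket proteins and other E2F factors it was E2f3, an activator of S phase genes, with 19.3 ± 2.97 CPM in Rar-deleted ovaries, against 14.8 ± 3.30 CPM in controls (SD, n = 5 each; log2 fold change 0.38 ± 0.18, edgeR adjusted p = 0.590). In the remaining lists it was Cdc7, the kinase that fires licensed origins (0.31 ± 0.17), Cdc25c, the phosphatase that activates Cdk1 (-0.25 ± 0.18), and Spc25, a subunit of the Ndc80 kinetochore complex (-0.24 ± 0.14), each on the log2 scale.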

How the data were processed

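PolyA RNA of 10 mouse ovary libraries was measured in 3 groups. Per the submitters' processing notes, the genome build was GRCm38 (mm10), and the tools named are STAR 2.4.2a, Trimmomatic 0.32, DESeq2 1.12.3 and SAMtools 1.0; the counter and annotation are not given in the sources used here. The deposited count table holds a raw count per gene and library. The authors also deposited FPKM, scaled by the authors between libraries. Per the file headers, the authors' deposited comparison table holds, per gene, the mean of normalised counts as a signal, the Wald score, the p-value before and after adjustment, and the log2 fold change with SE; it was used here only to look for members. 

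CPM were scaled by TMM factors. Tests used edgeR 4.0.16 in R 4.3.3 (TMM, filterByExpr, robust quasi-likelihood, two-sided, adjusted over all genes), in a 2-group fit (18954 genes) and a 3-group fit (20570 genes). An approximate SE was taken as the absolute log2 fold change over the root of the F statistic; log2 CPM for plots has a prior count of 2. DESeq2 1.42.0, RLE factors, no filter, a title-number term, a replicate block and single libraries left out were the alternatives. The steps were tested on simulated data. Exon lengths come from GENCODE M21 and were matched by Ensembl identifier. A count of 0 allows 3 counts, or 0.116 to 0.142 CPM, for counting error only. No libraries of a group were duplicates: chi-square per degree of freedom was 12.8 or more. Named members were those with the smallest p of their role in the pooled comparison or in Rar mutants, the highest and lowest FPKM, and any called or not overlapping; others named were chosen after their values were seen. The members and all lists were chosen with earlier results of these data known.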

Additional observations from a re-analysis of the deposited data

Results flagged for a closer look

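Among 100 groups of 5 libraries examined for a library that stands apart, 2 held one, where chance gives about 1 in 20. Both were mitosis genes in the Rar-deleted ovaries, and in both the library was Dmrt1 het Rar mutant 1. Bub1, a kinase of the spindle checkpoint, had 49.0 CPM there, and 29.8 to 34.8 CPM in the other 4 Rar-deleted libraries. Cenpe, a kinetochore motor, had 69.1 CPM there, and 43.7 to 49.8 CPM in the other 4.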

How the results depend on the processing

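No value of a member changed sign while called. With DESeq2 the genes called were 180 in the pooled comparison, 372 in Rar mutants, 329 in Dmrt1 het Rar mutants and 626 between the mutants, the last with 1 member, Pcna. With the title-number term they were 40, 85, 1 and 0, and the members' median log2 fold change was 0.12 in Dmrt1 het Rar mutants and 0.23 against Rar mutants. Title numbers of 7800 and above alone gave 142 genes in both comparisons they allow, which then hold the same libraries. The Rar mutants and controls fitted alone gave 1 gene. With the 3 groups as the other term, the title-number sets gave 2414 genes and 5 members. The cause of these shifts was not tested. With RLE factors, and without the filter in the 4 genotype comparisons, the counts stayed within 1.5 times; the title-number sets were not run without it.

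Leaving out each library in turn, the genes called ran from 5 to 52 (pooled), 1 to 384 (Rar mutants, the highest without Rar mutant 1), 0 to 364 (Dmrt1 het Rar mutants, the highest without Control 1), 0 to 335 (between the mutants, the highest without Rar mutant 1) and 3166 to 5924 (title-number sets). The members called stayed at 0 in the 4 genotype comparisons, and ran from 1 to 11 between the sets. The members' median ran from -0.15 to -0.0042 (pooled), -0.21 to -0.06 (Rar mutants), -0.23 to 0.14 (Dmrt1 het Rar mutants) and -0.15 to 0.20 (between the mutants). A group left with 1 library is assumed to vary like the others.

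Replicate numbers showed no clear pairing of the libraries, though so few values cannot exclude it. The correlation of deviations was 0.44, 0.02 and 0.24 for Controls and Rar mutants 1 to 3. Control 1 and Rar mutant 1, with the highest value, also share a title-number set. For Controls and Dmrt1 het Rar mutants it was 0.08 and 0.07. With 2 libraries the deviations of Dmrt1 het Rar mutants mirror each other, so these values tell little. With the replicate number as a block, the genes called were 0 (pooled), 2 (Rar mutants), 0 (Dmrt1 het Rar mutants) and 0 (between the mutants), the members called were 0 in each, and the median in Rar mutants was -0.0070, with 18 of the 24 mitosis genes below 0.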

Other observations

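Among marker lists of other cells, the summed level of 5 erythroid genes was 371 and 593 CPM in Dmrt1 het Rar mutants, 470, 2003 and 2706 CPM in Rar mutants, and 297 to 1635 CPM in controls. The 10 corpus luteum markers summed to 10135 and 12127 CPM in Dmrt1 het Rar mutants, 12136 to 19558 CPM in Rar mutants and 9441 to 17876 CPM in controls. Control 3, with the highest Ccnd2 of all libraries (342 CPM), also had the highest granulosa sum (7964 CPM), the highest sum of the 8 theca and interstitial markers (4635 CPM) and the lowest luteal sum. The 10 lymphocyte markers summed to 11.3 and 8.25 CPM in Dmrt1 het Rar mutants, 8.24 to 9.67 CPM in Rar mutants and 8.36 to 12.9 CPM in controls.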
